A study of Mus musculus with 12 samples.

Results

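Ttr, Enpp2, Kl, Folr1, Aqp1, Slc4a5, Clic6 and Otx2, 8 genes known for their expression in the choroid plexus, were followed in the whole-brain transcriptomes of Slc6a20a mutant mice. They were taken by symbol from the deposited table, which holds 19775 genes, and all 8 were found and tested. The table covers 12 male C57BL/6N mice at about postnatal day 120. These were 4 wild-type (WT) mice, 4 Slc6a20a+/– (HT) mice and 4 Slc6a20a–/– (HM) mice, all bred from heterozygous parents. The mutant allele lacks exon 3 and is carried in the germline, so transcripts from the rest of the gene can still be counted in HM mice. Each library came from 1 whole brain, of which the choroid plexus is a small part. In such bulk samples, fewer choroid plexus cells and less RNA per cell cannot be told apart.

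The choroid plexus is a folded sheet of epithelial cells around leaky capillaries that hangs in the brain ventricles. Its epithelium secretes the cerebrospinal fluid by moving sodium, bicarbonate, chloride and water from the blood side to the ventricle side, and it supplies the fluid with carrier proteins, vitamins and hormones. Transthyretin is its best known product, and mRNA for it in brain tissue comes chiefly from this epithelium. Slc6a20a encodes a plasma membrane transporter of proline and glycine.

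The results turn on genes that rose and fell together from mouse to mouse, so the DNA before their transcription starts is shown here for some. The windows are from the RefSeq promoters of GRCm38.p6. Of the 8 genes, windows were taken for 4 (Kl, Aqp1, Slc4a5 and Otx2). No entry was found for Enpp2, Folr1 and Clic6. Ttr was left out of the selection, so whether it has an entry is not stated. Ttr, Enpp2, Folr1 and Clic6 are named only. Each line gives the 250 bases before a start, read 5′ to 3′ on the strand of the gene, and capitals mark the core TAATCC or its reverse complement GGATTA, which OTX homeodomain proteins bind. Otx2 had 4 annotated starts, and the only one of its windows with such a core is given. The Slc4a5 window and this Otx2 window each lie within the span that GENCODE gives the gene, before an internal start.
Slc6a20a, chr9:123678833-123679082, minus strand: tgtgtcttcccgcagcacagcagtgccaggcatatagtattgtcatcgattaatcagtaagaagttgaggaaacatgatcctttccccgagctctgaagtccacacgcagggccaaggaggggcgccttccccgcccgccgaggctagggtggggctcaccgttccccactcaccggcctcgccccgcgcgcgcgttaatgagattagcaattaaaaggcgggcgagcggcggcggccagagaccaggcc
Kl, chr5:150952357-150952606, plus strand: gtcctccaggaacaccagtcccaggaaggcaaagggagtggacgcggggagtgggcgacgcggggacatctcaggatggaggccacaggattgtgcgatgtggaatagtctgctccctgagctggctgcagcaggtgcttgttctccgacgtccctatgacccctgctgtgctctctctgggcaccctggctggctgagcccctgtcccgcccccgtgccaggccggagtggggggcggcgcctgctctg
Aqp1, chr6:55336049-55336298, plus strand: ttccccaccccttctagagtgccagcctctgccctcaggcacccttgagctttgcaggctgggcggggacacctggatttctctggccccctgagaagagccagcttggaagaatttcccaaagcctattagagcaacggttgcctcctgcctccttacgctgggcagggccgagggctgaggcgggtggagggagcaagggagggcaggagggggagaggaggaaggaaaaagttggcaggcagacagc
Slc4a5, chr6:83237125-83237374, plus strand: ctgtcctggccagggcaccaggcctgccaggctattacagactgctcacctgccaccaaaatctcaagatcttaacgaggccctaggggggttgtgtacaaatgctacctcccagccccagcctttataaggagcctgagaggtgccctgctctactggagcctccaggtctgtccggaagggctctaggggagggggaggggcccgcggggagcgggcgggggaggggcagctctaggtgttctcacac
Otx2, chr14:48665110-48665359, minus strand: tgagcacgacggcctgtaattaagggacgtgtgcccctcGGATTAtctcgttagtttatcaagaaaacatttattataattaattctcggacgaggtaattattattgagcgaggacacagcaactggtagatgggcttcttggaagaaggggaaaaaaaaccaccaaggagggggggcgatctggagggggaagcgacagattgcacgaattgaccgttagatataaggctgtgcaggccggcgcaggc
This core was found once, in the Otx2 window, and in 6.25% of all 32851 promoter windows of the same length. A forkhead core, GTAAACA or TGTTTAC, was found in none of the windows of Kl, Aqp1, Slc4a5, Otx2 and Slc6a20a and in 3.17% of all windows. No window of Ttr, Enpp2, Folr1 or Clic6 was searched for either core. The windows of Slc6a20a, Kl, Aqp1 and Slc4a5 had a GC content of 61.2%, 66.8%, 62.0% and 62.8%, against a median of 52.4% over all windows. The Otx2 window shown had 48.4%, and the other Otx2 windows 42.0%, 49.2% and 53.6%.

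The values are normalized counts, that is, read counts estimated with Salmon, summed per gene and divided by DESeq2 size factors. The 12 libraries summed to between 33284951 and 33748623 normalized counts, sums that no longer show sequencing depth. The targeted gene separated the genotypes without overlap, at 679 ± 70.1 normalized counts in WT mice, 345 ± 29.1 in HT mice and 64.5 ± 9.9 in HM mice (SD, n = 4 each). Test results below are from limma on log2(normalized count + 1), with p-values adjusted over all genes by the Benjamini-Hochberg (BH) method.

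Per kilobase of transcript, which allows genes to be compared, the 8 genes spanned a wide range in WT mice. Ttr, on chromosome 18 (20665280 to 20674321 in GRCm38, plus strand), was the most abundant with 12820 ± 1671 normalized counts per kilobase (SD, n = 4). Enpp2 followed with 3542 ± 329. Kl (137 ± 17.5) and Clic6 (136 ± 5.96) had nearly equal levels per kilobase, well within their spread. The level per kilobase was 87.0 ± 42.0 for Folr1, 55.9 ± 3.54 for Otx2, 36.3 ± 8.48 for Aqp1 and 20.7 ± 4.26 for Slc4a5. WT replicate 1 put Folr1 above Kl and Clic6 in that mouse, so these 3 genes overlapped, while the 4 mice of each gene lower in this order lay below those of the gene before it.

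Secreted and shed proteins come first. Ttr encodes transthyretin, which carries thyroxine and retinol-binding protein. Its normalized counts were 15365, 13722, 13782 and 17949 in WT replicates 1 to 4, 11304, 14690, 18227 and 13339 in HT replicates 1 to 4, and 14281, 8995, 16267 and 9336 in HM replicates 1 to 4. HM replicates 2 and 4 were the lowest of all 12 mice, whereas HM replicates 1 and 3 lay within the WT range. Enpp2 (chromosome 15, 54838901 to 54952892, minus strand) encodes autotaxin, a secreted enzyme that produces lysophosphatidic acid and is also made by oligodendrocytes. The mice had 10828, 10423, 10164 and 12433 normalized counts of Enpp2 in the WT group, 9147, 10868, 12210 and 9763 in the HT group, and 10682, 7274, 12053 and 7894 in the HM group. The same 2 HM mice were lowest, and HT replicate 1 was the lowest HT mouse for both genes. Kl (chromosome 5, 150952607 to 150993817, plus strand) encodes klotho, a co-receptor of fibroblast growth factor 23 whose outer part is shed into the fluid. Normalized counts of Kl were 686, 674, 611 and 824 in WT mice, 499, 707, 868 and 540 in HT mice, and 684, 321, 676 and 364 in HM mice. HM replicates 2 and 4 had about as much Kl as each other and less than every other mouse.

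Receptors, channels and transporters of the epithelial membrane showed the same 2 low HM mice. Folr1 (chromosome 7, 101858331 to 101870788, minus strand) encodes the folate receptor alpha, which brings folate into the cerebrospinal fluid. It had 196, 82.5, 81.7 and 96.2 normalized counts in WT mice, 68.0, 73.0, 119 and 86.5 in HT mice, and 101, 44.6, 128 and 49.6 in HM mice. WT replicate 1 stood far above the other WT mice. Aqp1 (chromosome 6, 55336432 to 55348555, plus strand) encodes the water channel of the ventricle-facing membrane. Its normalized counts were 100.5, 88.7, 69.3 and 123 in WT mice, 73.9, 84.1, 123 and 80.8 in HT mice, and 105, 39.4, 118 and 63.3 in HM mice. The highest Aqp1 values of WT, HT and HM mice were close to each other, and HM mice reached further down. Slc4a5 (chromosome 6, 83219828 to 83304945, plus strand) encodes a sodium bicarbonate cotransporter. The libraries had 130.4, 98.0, 80.2 and 116 normalized counts of Slc4a5 in the WT group, 67.7, 120.3, 119 and 131 in the HT group, and 92.8, 30.7, 131 and 29.0 in the HM group. Slc4a5 varied most among HM mice, and its highest HM value was 4.52 times its lowest. Clic6 (chromosome 16, 92485736 to 92541243, plus strand) encodes a member of the chloride intracellular channel family. Its normalized counts were 500.7, 510, 488 and 541 in WT mice, 358, 517, 572 and 411 in HT mice, and 440, 266, 478 and 294 in HM mice. Clic6 was the least variable of these genes in WT mice, with a coefficient of variation of 4.39%, against 21.0% in HT mice and 28.5% in HM mice.

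Otx2 (chromosome 14, 48657677 to 48673819, minus strand) encodes a homeodomain transcription factor needed to form and maintain the choroid plexus, and parts of the midbrain and thalamus make it too. It had 149, 150, 131 and 150 normalized counts in WT mice, 141, 143, 191 and 132 in HT mice, and 142, 135, 149 and 65.1 in HM mice. Here only HM replicate 4 was low, and HM replicate 2 was close to the other mice.

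**Figure D1:**
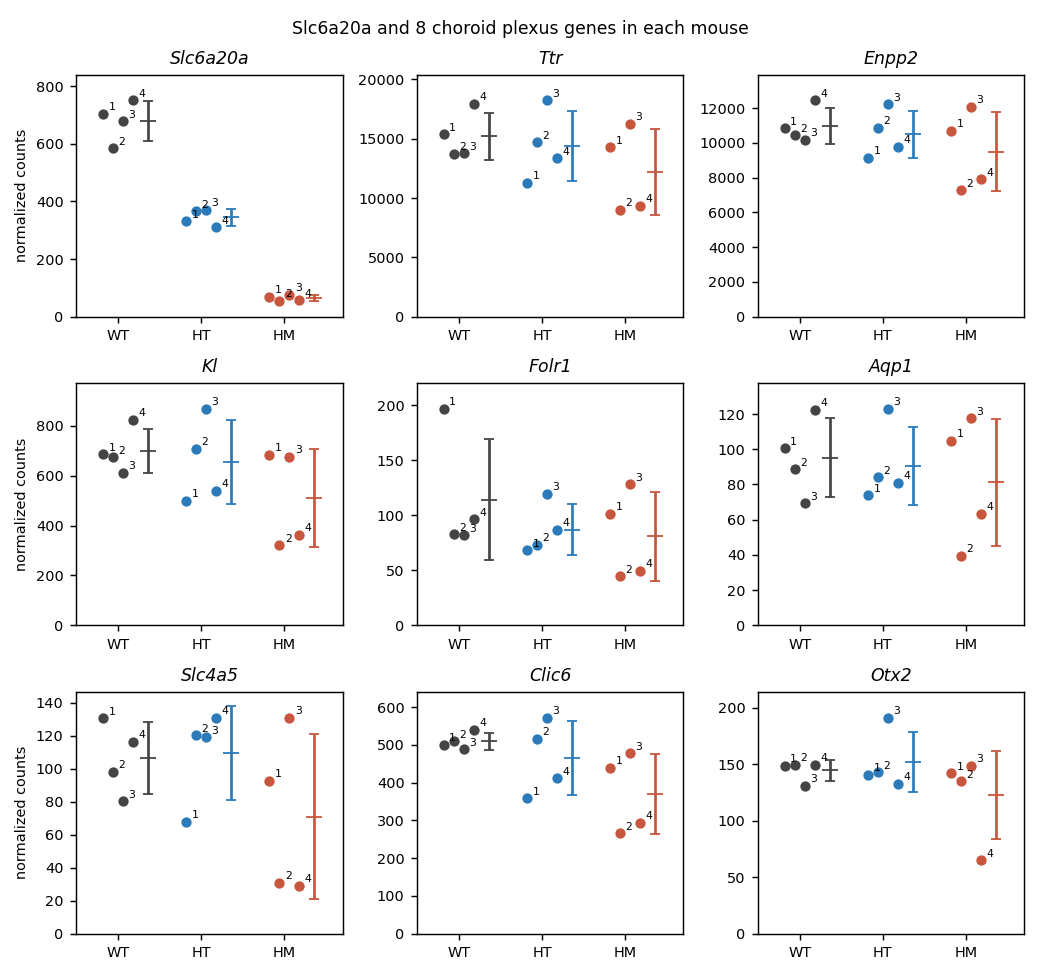
Normalized counts (y axis, linear from 0) of Slc6a20a and the 8 choroid plexus genes in each of 12 mice, by genotype (x axis); points carry the replicate number, and bars beside them give the mean ± SD of 4 mice. Slc6a20a separates the genotypes, whereas the other genes overlap between them, apart from Clic6, which is lower in all HM than in all WT mice. The 8 genes fall lowest in HM replicates 2 and 4, except that Otx2 is low in HM replicate 4 alone.

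The split among the HM mice was seen in 7 of the 8 genes. The mean of HM replicates 2 and 4, as a percentage of the mean of HM replicates 1 and 3, was 60.0% for Ttr, 66.7% for Enpp2, 50.3% for Kl, 41.1% for Folr1, 46.2% for Aqp1, 26.7% for Slc4a5 and 60.9% for Clic6. For each of these 7 genes, all 8 WT and HT mice lay above both low HM mice. For Otx2 the percentage was 68.8%, and 6 of the 8 WT and HT mice lay above both. Slc6a20a itself was also lower in these mice, at 77.5% of HM replicates 1 and 3. This pair of mice was picked after its values were seen, so no test was made of the split. Coefficients of variation within genotypes ranged from 4.39% (Clic6) to 48.3% (Folr1) in WT mice, from 12.8% (Enpp2) to 26.6% (Folr1) in HT mice and from 23.9% (Enpp2) to 70.4% (Slc4a5) in HM mice.

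Whether the genotype changed these genes was asked first. Between HT and WT mice, none of the 8 genes passed the test. Log2 fold changes ran from -0.33 for Folr1 (-0.032 without WT replicate 1) to 0.06 for Otx2 with a median of -0.08, against a median of 0.00 over all 18004 genes tested, and 2 of the 8 were above 0. The count of genes with a BH-adjusted p under 0.05 (limma) was 0 of 8, where 0.00555% of all genes passed, and that with an unadjusted p under 0.05 was also 0 of 8, where 6.42% of all genes passed. For Ttr the log2 fold change was -0.09 (SE 0.12, 95% interval -0.35 to 0.16, BH-adjusted p = 0.918, limma). Intervals were wider for Slc4a5, from -0.42 to 0.47, and for Folr1, from -0.89 to 0.23. HT mice overlapped WT mice in all 8 genes, whereas 1.91% of all genes were lower and 1.82% higher in HT mice without overlap.

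Between HM and WT mice, all 8 genes had lower means in HM, but none passed the adjusted threshold (limma, BH; 0.0111% of all genes passed). Clic6 had the clearest difference. Its mean fell from 510 ± 22.4 in WT to 369 ± 105 normalized counts in HM mice (SD, n = 4), or by -0.51 on the log2 scale (SE 0.16, unadjusted p = 0.00697, BH-adjusted p = 0.646, limma). The highest HM mouse had 478 normalized counts of Clic6 and the lowest WT mouse 488, a separation with a two-sided exact permutation p of 0.0286, the smallest that 4 against 4 mice allow. Such a separation with lower HM values was found in 1.81% of all genes tested. The log2 fold change was -0.53 for Kl (SE 0.21, unadjusted p = 0.0297) and -0.35 for Ttr (SE 0.16, unadjusted p = 0.0497). These 3 genes had an unadjusted p under 0.05 with lower HM values, as did 3.05% of all genes. With single mice left out, the count of the 8 genes ranged from 1 to 6 (limma). It was 1 without HM replicate 2, where 1005 of 18026 genes passed in either direction. Without HM replicate 3 it was 6, where 1332 of 17994 genes passed. Slc4a5 had the lowest log2 fold change, -0.85, with the widest error (SE 0.41, unadjusted p = 0.0577). The values for the remaining genes were -0.53 for Folr1 (-0.24 without WT replicate 1), -0.32 for Aqp1, -0.31 for Otx2 and -0.24 for Enpp2, and adjusted p-values of the 8 genes ranged from 0.646 to 0.850 (limma, BH).

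HM replicates 2 and 4 were picked for their low values of these genes, so leaving them out had to raise the HM means, and the values without them are a description. Without them, an analysis added with the data in view, the log2 fold change against WT was 0.01 for Ttr, 0.05 for Enpp2, -0.03 for Kl, 0.10 for Folr1, 0.25 for Aqp1, 0.08 for Slc4a5, -0.15 for Clic6 and 0.01 for Otx2. The unadjusted p was under 0.05 for 0 of 8 genes (limma), and in the same fit it was for 786 of 18013 genes, while the intervals of Ttr (-0.21 to 0.23) and Clic6 (-0.35 to 0.04) both held 0. Animal numbers are part of the deposited column names, and a block on their first digits leaves this contrast to WT replicates 1 and 2 and HM replicates 3 and 4. With this animal-number block, Clic6 (-0.43), Kl (-0.46) and Ttr (-0.24) no longer had an unadjusted p under 0.05 (limma). Otx2 (-0.60) was the only one of the 8 that did, where 1413 of 18004 genes did.

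HM and HT mice, compared directly, also had no gene of the 8 past the adjusted threshold (limma, BH; 0.00556% of all genes passed), and 0 of 8 had an unadjusted p under 0.05, where 3.74% of all genes did. All 8 means were lower in HM mice, with log2 fold changes from -0.87 for Slc4a5 to -0.17 for Enpp2 and a median of -0.31. Without the low HM replicates 2 and 4, a removal that could only raise most HM means, the values lay between -0.05 for Otx2 and 0.42 for Folr1. The animal-number block here rests on HM replicate 4 and HT replicates 1 and 2. It gave values from -1.61 for Slc4a5 to -0.31 for Aqp1, with -1.11 for Otx2. HM replicate 4 is the only HM mouse that it compares with HT mice, so no test result is given. HM mice are shared by this comparison and the one with WT, so their low values enter both.

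**Figure D2:**
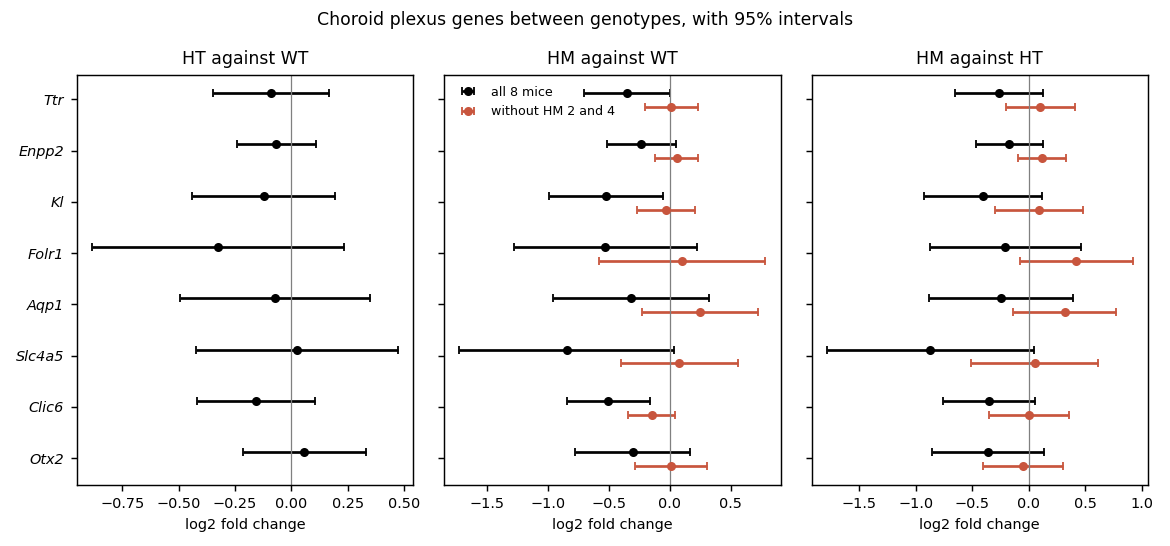
Log2 fold changes (x axis) of the 8 choroid plexus genes (y axis) in the 3 pairs of genotypes, with 95% intervals from limma, for all 8 mice (black) and without HM replicates 2 and 4 (red). For HM against WT the black points all lie below 0, from -0.85 to -0.24, whereas the red points lie between -0.15 and 0.25.

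The relation of these genes to the targeted transporter was then examined within genotypes. The log2 value of each gene was fitted on the log2 value of Slc6a20a with a mean of its own for each genotype, so that the loss of Slc6a20a between genotypes does not enter. All 8 slopes were positive. Ttr had a slope of 1.64 (SE 0.25, BH-adjusted p = 0.0433, limma) and Enpp2 one of 1.25 (SE 0.19, BH-adjusted p = 0.0433, limma), in log2 units per log2 unit of Slc6a20a. These were 2 of only 4 genes called among 18005 (0.0222%). Both others, Igf2 (slope 1.08, SE 0.16), a growth factor, and Slc13a4 (slope 1.35, SE 0.21), a sulfate transporter, were in a wider list of 35 genes of choroid plexus epithelium or stroma, and cells of the meninges make both as well. Their r with Slc6a20a was 0.911 and 0.929, and that with Ttr 0.722 and 0.784. An unadjusted p under 0.05 with a positive slope was reached by 7 of the 8 genes, and by 3.25% of all genes. The slope was 2.03 for Kl (SE 0.37, BH-adjusted p = 0.122), 1.45 for Clic6 (SE 0.31, BH-adjusted p = 0.261), 2.30 for Aqp1 (SE 0.55, BH-adjusted p = 0.382), 3.05 for Slc4a5 (SE 0.78, BH-adjusted p = 0.469) and 2.46 for Folr1 (SE 0.70, BH-adjusted p = 0.568). Otx2 had the shallowest slope, 1.06 (SE 0.53, unadjusted p = 0.0626, BH-adjusted p = 0.825, all by limma).

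The adjusted calls changed when single mice were left out. With each of the 12 mice left out in turn, 0 of the 8 genes were called in 10 fits. The count was 2 without HT replicate 4 and 4 without WT replicate 2 (limma, BH). In every such fit 7 or 8 of the 8 had an unadjusted p under 0.05, as did 859 to 1195 of all genes in either direction. The slope of Otx2 went from 1.06 to 0.42 (unadjusted p = 0.248) without HM replicate 4 and to 1.61 (unadjusted p = 0.00804) without HM replicate 2. All 8 slopes stayed above 0 under every alternative, but several were much shallower without the low HM mice. Without HM replicates 2 and 4, the slope was 1.24 for Ttr, 0.86 for Enpp2, 1.26 for Kl, 0.89 for Clic6, 1.34 for Aqp1, 0.93 for Slc4a5, 1.40 for Folr1 and 0.53 for Otx2. An unadjusted p under 0.05 was then left for Ttr, Enpp2 and Kl, and for 1035 of 18001 genes in either direction, and none of the 8 was called. Without all HM mice, 3 of 8 were likewise under 0.05, where 1140 of 18003 genes were. The slope was then 0.83 for Enpp2, 0.90 for Clic6, 1.36 for Aqp1, 0.71 for Slc4a5, 1.32 for Folr1 and 0.54 for Otx2. The animal-number block gave Folr1 a slope of 1.24, and with this block none of the 8 was called (limma, BH). Other settings that ended the calls are listed at the end.

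Correlations of the deviations from the genotype means were taken over 12 mice, with permutations of mice within genotypes. Pearson's r ranked the genes as the p-values of the slopes did, not as the slopes did. Spearman's rho put Ttr before Enpp2 and Folr1 before Slc4a5. Pearson's r with Slc6a20a was 0.884 for Enpp2 (permutation p = 0.00499, Spearman's rho 0.853 with p = 0.00521) and 0.875 for Ttr (permutation p = 0.00543, rho 0.909 with p = 4.34e-04). It was 0.839 for Kl (permutation p = 0.0116, rho 0.839 with p = 0.00760), 0.811 for Clic6 (permutation p = 0.0145, rho 0.790 with p = 0.0124) and 0.789 for Aqp1 (permutation p = 0.0230, rho 0.748 with p = 0.0354). For Slc4a5 (r = 0.738, permutation p = 0.0670, rho 0.650 with p = 0.103), Folr1 (r = 0.709, permutation p = 0.0579, rho 0.713 with p = 0.0543) and Otx2 (r = 0.508, permutation p = 0.195, rho 0.497 with p = 0.129), neither coefficient passed 0.05. These are 8 relations that share the same 12 libraries, and their p-values are not adjusted; the slopes above carry the adjustment over all genes. Over all genes, r with Slc6a20a had a median of -0.0035 and a 95th percentile of 0.575, and 0.489% of genes exceeded 0.8. Without the 2 mice farthest from the median Slc6a20a deviation, WT replicate 2 and HM replicate 2, r was 0.892 for Ttr, 0.938 for Enpp2, 0.911 for Kl, 0.898 for Clic6, 0.833 for Aqp1, 0.754 for Slc4a5, 0.601 for Folr1 and 0.872 for Otx2. The r of Otx2 thus depended on these mice, and its slope, as given above, became shallower without HM replicate 4.

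The order of mice within each genotype shows the relation without a scale. Each genotype gives 6 pairs of mice, or 18 in all, and the mouse with more Slc6a20a also had more Ttr in 17 of 18 pairs. The count was 16 for Enpp2 and Aqp1, 15 for Kl and Clic6, 14 for Folr1 and Otx2, and 11 for Slc4a5. In HM mice the order agreed in all 6 pairs for Ttr, Enpp2, Folr1, Aqp1 and Clic6, and in 5 for Kl, Slc4a5 and Otx2, over a range of Slc6a20a from 55.6 to 76.5 normalized counts. In WT mice it agreed in 6 pairs for Ttr, 5 for Enpp2, Kl and Aqp1, 4 for Folr1, Slc4a5 and Clic6, and 3 for Otx2. In HT mice it agreed in 6 pairs for Otx2, 5 for Ttr, Enpp2, Kl, Aqp1 and Clic6, 4 for Folr1 and only 2 for Slc4a5.

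**Figure D3:**
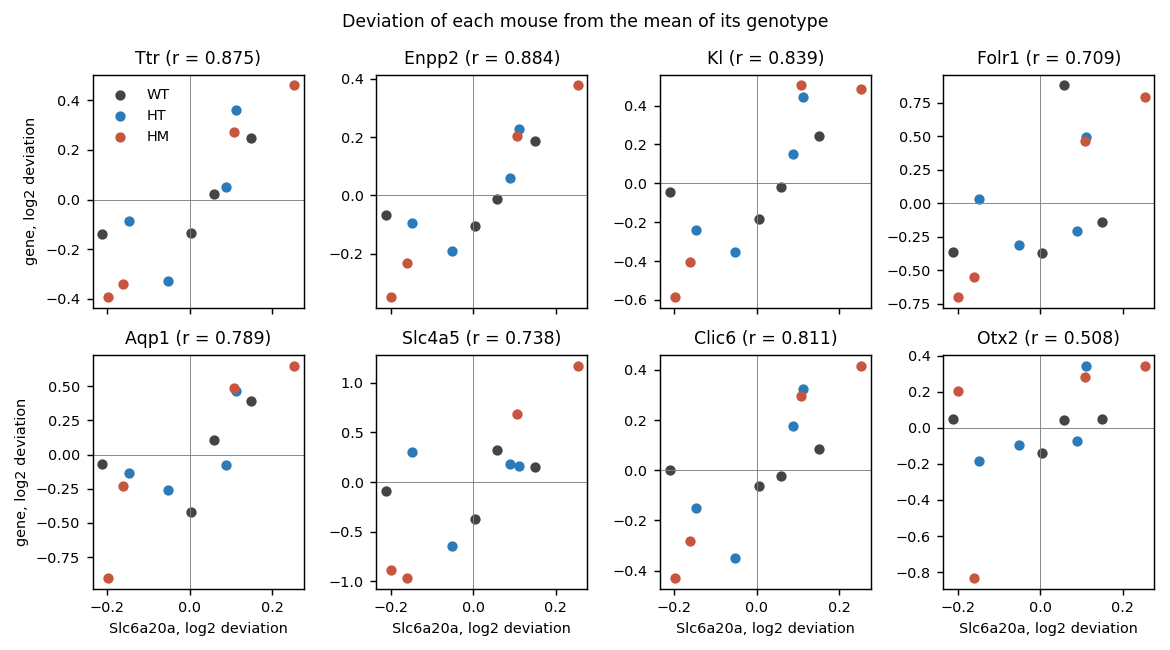
Deviation of each mouse from the mean of its genotype, in log2(normalized count + 1), for Slc6a20a (x axis) and each of the 8 choroid plexus genes (y axis), with 12 points a panel coloured by genotype and Pearson's r in the title. Over the 12 mice together, points rise from lower left to upper right in all panels, with r from 0.508 (Otx2) to 0.884 (Enpp2). HM mice lie at both ends.

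A slope for each genotype, also added with the data in view, was steeper in HM than in WT mice for all 8 genes. In WT mice alone, the slope of Otx2 was just below 0, at -0.02. For Ttr the slopes were 0.96 in WT mice, 1.67 in HT mice and 1.98 in HM mice, and for Enpp2 they were 0.58, 1.21 and 1.59. Clic6 had slopes of 0.15, 2.06 and 1.90 (F-test by limma, unadjusted p = 0.0244), and Slc4a5 had slopes of 0.83, 0.52 and 4.97 (unadjusted p = 0.0120). No gene of the table had a difference between its 3 slopes with an adjusted p under 0.05, and the adjusted p was 1.00 for all 8 (limma, BH), so a difference of slopes between genotypes was not shown.

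The loss of Slc6a20a itself was far larger than this shared variation. With the mean log2 value of the 8 genes as a covariate, its log2 fold change was -0.94 (SE 0.08) against -0.97 without it for HT against WT, and -3.21 (SE 0.11) against -3.38 for HM against WT. The corresponding values for HM against HT were -2.28 and -2.41, and Slc6a20a remained called in all 3 comparisons (limma, BH-adjusted p at most 0.00162). As a percentage of Ttr, Slc6a20a amounted to 4.18% to 4.92% in WT mice, 2.04% to 2.93% in HT mice and 0.470% to 0.618% in HM mice, without overlap.

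The genes also moved with each other. With Ttr in place of Slc6a20a in the same model, 5 of the 7 others were called (limma, BH; 0.0555% of all genes were), and all 7 had an unadjusted p under 0.05 with a positive slope, as did 2.81% of all genes. Enpp2 had a slope on Ttr of 0.74 (SE 0.05, BH-adjusted p = 7.12e-06, limma), which is below 1, so that Enpp2 varied less than Ttr. Kl (1.24, SE 0.11, BH-adjusted p = 1.17e-04), Aqp1 (1.43, SE 0.22, BH-adjusted p = 0.0293) and Slc4a5 (1.95, SE 0.31, BH-adjusted p = 0.0305) had steeper slopes, and Clic6 one of 0.91 (SE 0.11, BH-adjusted p = 0.00323). Folr1 (1.45, SE 0.34) and Otx2 (0.70, SE 0.26) were not called, with adjusted p-values of 0.397 and 0.907 (limma, BH). Of all 10 genes called, 5 were outside the list of 8: F5, Kcnj13, Kcne2, Mfrp and Slc2a12. The slope of Slc6a20a on Ttr was 0.47 (SE 0.12, unadjusted p = 0.00184, BH-adjusted p = 0.534), and 28 genes had a higher r with Ttr. The count of called genes was 0 without all HM mice and 1 without HM replicates 2 and 4 (Enpp2). It was 3 without HM replicate 1, 2 or 3, and 4 to 6 without any other mouse. With quantile normalization or the animal-number block it was 3, and with a block on replicate number it was 2.

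All 28 pairs among the 8 genes had a positive r within genotypes, from 0.423 (Aqp1 and Otx2) to 0.987 (Ttr and Enpp2) with a median of 0.845, and 16 pairs exceeded 0.8. The permutation p was under 0.05 for 21 pairs by Pearson's r and for 22 by Spearman's rho, unadjusted. Otx2 stood apart, with r from 0.423 to 0.625, while the 21 pairs without Otx2 had r of at least 0.717.

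Other genes of this tissue were read from the wider list of 35, of which 34 were tested (Slco1a5 had a mean under 10). In the slope on Slc6a20a, 19 of 34 had an unadjusted p under 0.05, all with positive slopes, 2 were called, and their median r was 0.669, against 0.80 for the 8 genes. By role, the count was 6 of 7 secreted proteins, 4 of 9 transporters and channels, 6 of 8 receptors, membrane and junction proteins, and 3 of 10 transcription factors and structural proteins. On Ttr, 23 of 34 had an unadjusted p under 0.05 with a positive slope and 3 were called. F5, coagulation factor V, had r = 0.971 with Ttr, Kcnj13, an inwardly rectifying potassium channel, 0.956, and Kcne2, a potassium channel subunit, 0.922. The next were Steap1 (0.920), 1500015O10Rik (0.896), which encodes the secreted peptide precursor augurin, and Col8a1 (0.894), a collagen. The lowest were Htr2c (-0.401), a serotonin receptor, and Slc29a4 (-0.109), a monoamine transporter, both also made by neurons, followed by Cldn1 (0.244), a tight junction protein. Between HM and WT mice, 30 of the 34 had lower means in HM, with a median log2 fold change of -0.19 and 3 with an unadjusted p under 0.05, and none was called (limma, BH).

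Markers of the meninges moved with Slc6a20a as well, and those of the ependyma did so less. For 10 genes of meningeal cells, 8 had a positive slope on Slc6a20a with an unadjusted p under 0.05, none was called, and the median r was 0.836. The largest r was 0.933 for Col1a2, a fibrillar collagen chain, and that of Slc22a6, an organic anion transporter, was 0.911. On Ttr the meningeal median r was 0.661, with 7 of 10 under 0.05. The summed meningeal level was 2864 to 4104.5 normalized counts in WT mice, 2985 to 3462 in HT mice and 2788 to 3620 in HM mice, with 2788 and 2807 in HM replicates 2 and 4, and none of the 10 markers was at 0. The part of the meninges in the relation with Slc6a20a was not tested. For 8 ependymal markers the median r with Slc6a20a was 0.457 with 2 of 8 under 0.05, and their sum ranged from 713 to 947 in WT mice, 663 to 851 in HT mice and 660 to 868 in HM mice.

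Oligodendrocytes also make Enpp2. Their 9 markers had a median r of 0.190 with Slc6a20a and -0.176 with Ttr, and none had an unadjusted p under 0.05. The oligodendrocyte sum was 180474 to 209445 normalized counts in WT mice, 179062 to 204279 in HT mice and 176481 to 208677 in HM mice. In HM replicates 1 to 4 it was 176481, 190963, 198302 and 208677. The part of oligodendrocytes in the variation of Enpp2 was not tested. Erythrocyte markers (5 genes) had a median r of -0.139 with Slc6a20a, markers of the olfactory bulb (6 genes) one of -0.02, and both pineal markers in the table one of -0.02, with 0 genes under 0.05 in each list. Their sums differed between mice or genotypes. The erythrocyte sum ranged from 5859 to 29022 normalized counts in HM mice, 6495 to 8717 in HT mice and 7780 to 21984 in WT mice. The olfactory bulb sum was 1152 to 1801 in HM mice, above every WT (834 to 1055) and HT (730 to 981) mouse. Among the HM mice, the olfactory bulb sum was 1651, 1152, 1403 and 1801 in replicates 1 to 4. The pineal sum ranged from 14.3 to 60.6 over all mice.

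**Figure D4:**
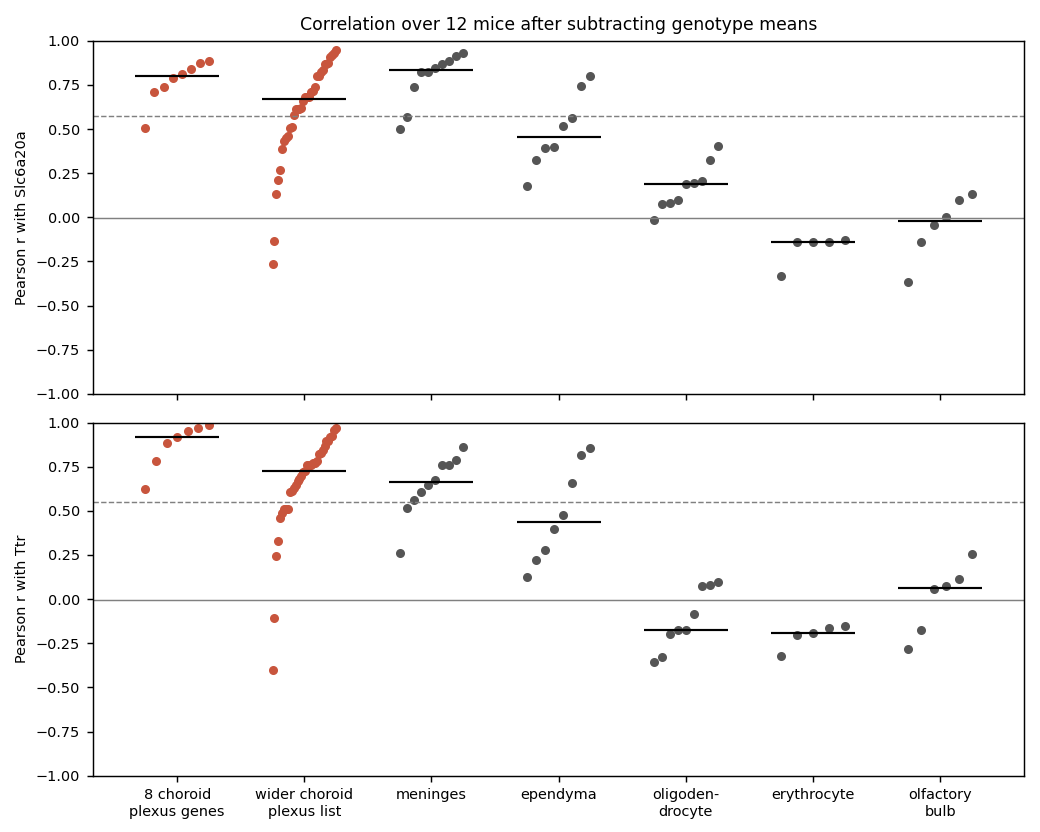
Pearson's r of each gene with Slc6a20a (top) and with Ttr (bottom) over 12 mice after subtracting genotype means, by list (x axis); black bars are list medians, the grey line is the median and the dashed line the 95th percentile of all genes tested. With Slc6a20a, the medians of the 8 genes (0.80) and of the meningeal list (0.836) lie above the dashed line at 0.575, and those of the oligodendrocyte (0.190), erythrocyte (-0.139) and olfactory bulb (-0.02) lists lie below it.

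The genes most like the 8 were ranked by Pearson's r with the mean of their scaled deviations over the 12 mice, among 17998 other genes with a median r of -0.0049. The first 5 were Kcnj13 (0.953), F5 (0.945), Mfrp (0.941), Kcne2 (0.938) and Slc2a12 (0.928). Mfrp shares a transcript with the neighbouring C1qtnf5, so its reads are uncertain. The next 10 were Dus3l (0.923), Glb1l2 (0.917), Ccdc170 (0.910), Armc4 (0.902), Gas2l2 (0.898), 1500015O10Rik (0.891), Rbm47 (0.890), Cfap161 (0.890), Steap1 (0.888) and Pafah1b3 (0.882). Of these 15 genes, 5 were in the wider choroid plexus list. Slc6a20a had r = 0.848 and rank 37.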

How the data were processed

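RNA from 12 whole brains was sequenced by the authors as poly-A libraries. The authors estimated transcript abundance on GRCm38 with Salmon 1.1.0 and GC correction, summed it to genes with tximport and normalized it with DESeq2 1.30.1 (versions per the labels; the paper and labels differ on that of R). The deposited table gives this signal, normalized counts, for 19775 genes, of which 19758 matched GENCODE M21. At most 57.9% of the low values of a library were whole multiples of a read (tolerance 0.05), so reads were not recovered and no count model was fitted. No 2 libraries of a genotype were near-identical (median absolute log2 difference at least 0.0952).

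Limma 3.58.1 in R 4.3.3 was fitted on the log2 of normalized count + 1, its variance prior following the mean, to all genes whose mean reached 10, with BH adjustment and a threshold of 0.05. Contrasts used the 8 mice compared. Slopes used all 12 mice with genotype as a covariate. The fit was checked on simulated data. Two-sided exact permutation tests were used for single values, and correlations by all 13824 permutations within genotypes, whose smallest p is 7.23e-05. Lengths are those of the longest protein-coding transcript. Named genes were the 8 genes and Slc6a20a, of the wider list the 6 highest and 3 lowest by r with Ttr and any called, at most 2 per other list, and the 15 most alike. Members and lists were chosen with earlier results of these data known. Scripts used Python 3.11.15, numpy 2.4.6, scipy 1.17.1, pandas 2.3.3 and matplotlib 3.10.9. Replicate numbers did not pair the mice. Alternatives covered the pseudocount, the filter, normalization, blocks, the variance prior, and leaving out mice or genotypes.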

Additional observations from a re-analysis of the deposited data

Results flagged for a closer look

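In 3 of 27 groups of 4 mice (9 genes in 3 genotypes), 1 mouse stood apart by Dixon's criterion at the 95% level, which divides its gap to the nearest mouse by the range. Chance alone flags about 1 group in 20. Folr1 was at 196 normalized counts in WT replicate 1, the highest of the WT mice (gap over range 0.873). Otx2 was at 131.0 normalized counts in WT replicate 3, the lowest of a group whose other values lay within 1 normalized count of each other (0.950). Otx2 was also at 65.1 normalized counts in HM replicate 4, the lowest of the HM mice (0.834), where HM replicate 2 had 135.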

How the results depend on the processing

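Depth is unknown. The count of the 8 genes called stayed at 0 in all 3 genotype comparisons under every alternative. For the slope on Slc6a20a, the count fell from 2 to 0 with the animal-number block (mice whose animal numbers start alike), without a trend in the variance prior, with a robust prior, without HT mice, without HM mice and without HM replicates 2 and 4, and to 1 without WT mice. It ranged from 0 to 4 with each mouse left out. For the slope on Ttr, it fell from 5 to 3 with quantile normalization, with the animal-number block, without a trend, without WT mice and without HT mice, to 1 without HM replicates 2 and 4 and to 0 without HM mice, and ranged from 3 to 6 with each mouse left out. The causes were not tested.

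Replicate numbers are shared by the genotypes, but over 12 pairs of same-numbered mice the correlation of deviations was -0.07 to 0.09, and 3 of 12 mice were closest to their own number, so the numbers do not pair the mice. With a replicate block the count was 0 for the slope on Slc6a20a, 2 for that on Ttr and 0 in the genotype comparisons.

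Of the single values, 795 kept their direction and side of the threshold, 72 lost the threshold, 4 gained it and 25 changed sign. Slc6a20a in HT mice had an adjusted p of 0.145 without a trend (limma, BH). In HT against WT, Folr1 changed sign to 0.027 with the animal-number block. With each mouse left out, log2 fold changes of HT against WT ranged from -0.23 to 0.057 for Aqp1, -0.059 to 0.12 for Otx2, -0.21 to 0.016 for Ttr and -0.10 to 0.24 for Slc4a5, and those of HM against HT from -0.47 to 0.030 for Folr1 and -0.46 to 0.054 for Aqp1. Without HM replicates 2 and 4, HM against WT gave 0.098 for Folr1, 0.25 for Aqp1, 0.0080 for Otx2, 0.054 for Enpp2, 0.012 for Ttr and 0.077 for Slc4a5, and HM against HT gave 0.42 for Folr1, 0.32 for Aqp1, 0.12 for Enpp2, 0.0054 for Clic6, 0.092 for Kl, 0.10 for Ttr and 0.054 for Slc4a5.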
